A study of Homo sapiens with 15 samples.

Results

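The endoplasmic reticulum (ER) chaperones and the genes of the unfolded protein response were followed in MT-2, a line of CD4+ T lymphocytes that carries and was transformed by the retrovirus HTLV-1. The list holds 32 genes of the ER folding, degradation and stress machinery. A gene was taken from the array where a transcript cluster (the probe set of 1 gene or transcript on this array) carries its symbol alone in the probe annotation. This held for 31 of the 32 genes, with 32 clusters of 28926 on the array, since P4HB has 2. The clusters of PDIA3 are shared with its pseudogene in the annotation, and PDIA3 was therefore not analysed here. The 31 genes comprise 12 chaperones and their cofactors, 3 disulfide isomerases, 8 degradation factors, 2 genes of translocation and export, and 6 sensors and regulators.

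Cells were cultured for 48 hours with ascorbic acid (AA) at 10 µg/ml (low dose), 50 µg/ml (intermediate dose) or 100 µg/ml (high dose), with 1000 IU/ml interferon-alpha (IFN-α), or without treatment, and RNA was hybridized to the Affymetrix Human Gene 1.0 ST Array. Each of the 5 conditions was present once in each of 3 experiments, which gives 15 arrays of 1 cell line. All cells, the untreated ones included, carry the HTLV-1 genome. The sample titles of experiments 2 and 3 share a tag apart from a letter, and how far these experiments are independent of each other is not stated. The values are the authors' log2 values after RMA normalization. In bulk RNA, fewer cells of a kind and less RNA per cell cannot be told apart.

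Array medians lay between 6.69 and 6.85. The high-dose AA array of experiment 3 stood apart from the others, with a mean correlation of 0.976 with the other 14 arrays against 0.991 to 0.995, and an SD over clusters of 2.02 against 2.12 to 2.18. On that array bright clusters were lower relative to untreated cells of its experiment (median log2 change of the brightest 25% of clusters -0.19), while dim clusters were higher (0.23 for the dimmest 25%). Of the 31 genes, 29 lie in the brightest 25%, so that the brightest 25% is given as background beside all clusters. The T-cell markers CD4, IL2RA, CCR4 and TNFRSF4 were above the upper quartile on all 15 arrays, CD2 was between the quartiles, and CD3E was below the lower quartile on 6 arrays. Of the 6 measured markers of other blood cells, MS4A1 was below the lower quartile on all 15 arrays, and CD8A, CD8B, CD14, ITGAM and NCAM1 lay between the quartiles. Of the 5 markers of secretory cells, TNFRSF17 was below the lower quartile on all 15 arrays, SDC1 and MZB1 lay between the quartiles, and PRDM1 and IRF4, which activated T cells express as well as plasma cells, were above the upper quartile on all 15. Some markers differed by as much as the genes described here. Under high-dose AA the log2 change from untreated cells was -0.32 for CD4, -0.26 for CCR4, -0.20 for PRDM1, -0.19 for TNFRSF4 and -0.18 for IRF4, none at an unadjusted p under 0.05. PRDM1 (-0.32) and CCR4 (-0.28) were lower in high-dose AA than in IFN-α cells at an unadjusted p under 0.05, and the slopes of CCR4 (-0.24) and IRF4 (-0.18) on the AA dose were negative at the same threshold. The part of these markers in the results was not tested. As a check of the IFN-α label, MX1 was higher by a log2 change of 3.44, OAS1 by 3.54, IFI44L by 4.99 and IFIT1, which was below the lower quartile on all 15 arrays, by 0.32.

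The ER folds secreted and membrane proteins. When unfolded proteins accumulate there, several membrane sensors respond: IRE1 (encoded by ERN1) splices the XBP1 messenger RNA, PERK (EIF2AK3) phosphorylates the initiation factor eIF2α and thereby favours translation of ATF4, and ATF6 is released as a transcription factor by cleavage in the Golgi. XBP1 and ATF6 then drive the genes of chaperones, of disulfide exchange and of ER-associated degradation, in which misfolded proteins are moved back to the cytosol and destroyed. The pathway is abundant in secretory cells such as plasma cells.

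ATF6 and spliced XBP1 are known to act through short promoter elements. The promoters below were taken from RefSeq on GRCh38.p14 (the array annotation used here names no build), as the 250 bases before the gene start, 5′ to 3′ on the strand of the gene. They show the forms that these elements take among the genes with values described here, and 1 promoter without any of them. Capitals mark the fixed letters of a match.
HSPA5 (chr9:125241344-125241593, minus strand): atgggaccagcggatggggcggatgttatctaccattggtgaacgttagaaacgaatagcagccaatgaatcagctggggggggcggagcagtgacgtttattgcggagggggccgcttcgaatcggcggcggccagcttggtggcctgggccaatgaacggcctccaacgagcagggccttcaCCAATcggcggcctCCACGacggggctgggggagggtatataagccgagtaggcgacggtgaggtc
XBP1 (chr22:28800570-28800819, minus strand): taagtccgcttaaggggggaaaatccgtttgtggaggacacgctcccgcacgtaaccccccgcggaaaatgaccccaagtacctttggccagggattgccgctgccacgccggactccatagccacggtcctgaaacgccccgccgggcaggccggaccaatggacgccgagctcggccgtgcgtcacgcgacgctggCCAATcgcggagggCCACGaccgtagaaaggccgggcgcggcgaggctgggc
HERPUD1 (chr16:56931892-56932141, plus strand): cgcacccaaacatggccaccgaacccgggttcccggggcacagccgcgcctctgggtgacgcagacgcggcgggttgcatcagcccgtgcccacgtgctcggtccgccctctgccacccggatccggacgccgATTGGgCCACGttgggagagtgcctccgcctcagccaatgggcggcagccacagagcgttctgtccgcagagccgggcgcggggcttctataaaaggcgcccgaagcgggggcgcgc
HYOU1 (chr11:119057206-119057455, minus strand): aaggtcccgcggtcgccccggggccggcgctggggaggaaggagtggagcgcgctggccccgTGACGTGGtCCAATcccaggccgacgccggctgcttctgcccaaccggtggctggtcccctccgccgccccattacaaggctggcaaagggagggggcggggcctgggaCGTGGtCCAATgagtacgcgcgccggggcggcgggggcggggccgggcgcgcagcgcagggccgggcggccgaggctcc
DNAJB9 (chr7:108569624-108569873, plus strand): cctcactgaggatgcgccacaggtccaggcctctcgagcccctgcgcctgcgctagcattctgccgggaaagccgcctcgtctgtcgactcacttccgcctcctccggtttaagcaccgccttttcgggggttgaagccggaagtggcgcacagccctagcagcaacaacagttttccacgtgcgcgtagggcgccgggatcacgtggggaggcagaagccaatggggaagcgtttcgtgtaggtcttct

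Of the 32 genes, 28 had at least 1 promoter in the table, with 35 promoters in all, and DERL1, DERL3, PDIA3 and SEC24D had none. Both strands were searched for 3 elements. The ER stress response element, CCAAT and CCACG with 9 bases between them, was present in the promoters of 7 of the 28 genes (CALR, CANX, CRELD2, HSP90B1, HSPA5, PDIA6 and XBP1), and in 0.074% of all 35116 promoters. Its second form, ATTGG and CCACG with 1 base between them, was present in HERPUD1, HYOU1 and SDF2L1, and in 0.0513% of all promoters. TGACG directly followed by TGG, the core of the XBP1-binding unfolded protein response element, was present in DNAJC10 and HYOU1, and in 0.612% of all promoters. In HYOU1 this core overlaps the upstream of 2 copies of the second form. The XBP1 promoter shown is 1 of 2 in the table, and the other held no match. None of these 3 elements was matched in full, with its fixed letters and spacing, in the DNAJB9 window. A match is a description of the letters, not of a binding site.

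The matched stretches of the other genes are given to show how the variable bases differ around the fixed ones.
CALR: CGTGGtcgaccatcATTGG
CANX: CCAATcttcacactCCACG
CRELD2: CGTGGcgaactcggATTGG
HSP90B1 (the upstream of 2 matches): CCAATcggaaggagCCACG
PDIA6: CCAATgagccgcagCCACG
SDF2L1: CGTGGaCCAAT

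None of the 31 genes passed the study's threshold, an unadjusted p under 0.001, in any comparison. Under high-dose AA 75 of all clusters passed it here, and 193 with the experiment as a block. The paper reports a number of genes between these from its own fit. At that threshold 0.259% of all clusters were called for high-dose, 0.0311% for intermediate-dose and 0.0207% for low-dose AA and 0.280% for IFN-α, each against untreated cells, 0.650% for high-dose AA against IFN-α and 0.245% for the slope on the AA dose. At an adjusted p under 0.05 no gene of the 31 was called, against 0% of all clusters for each AA dose and the slope, 0.221% for IFN-α and 0.325% for high-dose AA against IFN-α. Under high-dose AA the smallest adjusted p among the 31 genes was 0.422 over all clusters. The differences below are therefore given as values with their errors. Under high-dose AA the fitted change was negative for most of the genes: 25 of 31 had a negative log2 change, against 45.6% of all clusters and 61.6% of the brightest 25%. The median log2 change was -0.14, against 0.016 for all clusters and -0.041 for the brightest 25%. At an unadjusted p under 0.05, 6 of 31 genes were lower (DNAJB9, DNAJC3, XBP1, EDEM1, SEC24D and P4HB) and none was higher, against 3.62% of all clusters lower (5.34% of the brightest 25%) and 7.34% higher (2.89% of the brightest 25%). In 9 genes (HSP90B1, DNAJB9, DNAJC3, PDIA6, P4HB, SEL1L, EDEM1, XBP1 and EIF2AK3) every high-dose AA array lay below every untreated array, against 3.66% of all clusters and 4.89% of the brightest 25%.

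The size of the difference varied between experiments. In experiment 3 the median log2 change of the 31 genes was -0.35, against -0.0092 in experiment 1 and -0.073 in experiment 2. The brightest 25% of clusters had medians of 0.078, -0.014 and -0.19 in experiments 1, 2 and 3. Experiment 3 gave the lowest of the 3 changes for 24 of 31 genes. Negative changes were found for 18 genes in experiment 1, 25 in experiment 2 and 27 in experiment 3. The shares of all clusters for these counts and for that of 24 genes were not determined. Lower in all 3 experiments were 14 genes, against 11.4% of all clusters and 16.4% of the brightest 25%. Without the high-dose AA array of experiment 3, 26 genes had a negative change. The median over the 31 genes was then -0.062, against 0.011 for all clusters and 0.019 for the brightest 25%. At an unadjusted p under 0.05, 2 of 31 (DNAJB9 and DNAJC3) were lower, against 1.71% of all clusters and 1.51% of the brightest 25%. That count was 3 without the untreated array of experiment 3, against 2.16% and 2.41%. It was 10 without the high-dose AA array of experiment 1, where 10.4% of all clusters and 19.7% of the brightest 25% were lower. It was 11 without experiment 1 (7.28% and 13.2%), 2 without experiment 2 (2.14% and 2.20%) and 1 without experiment 3 (1.45% and 0.926%).

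**Figure D1:**
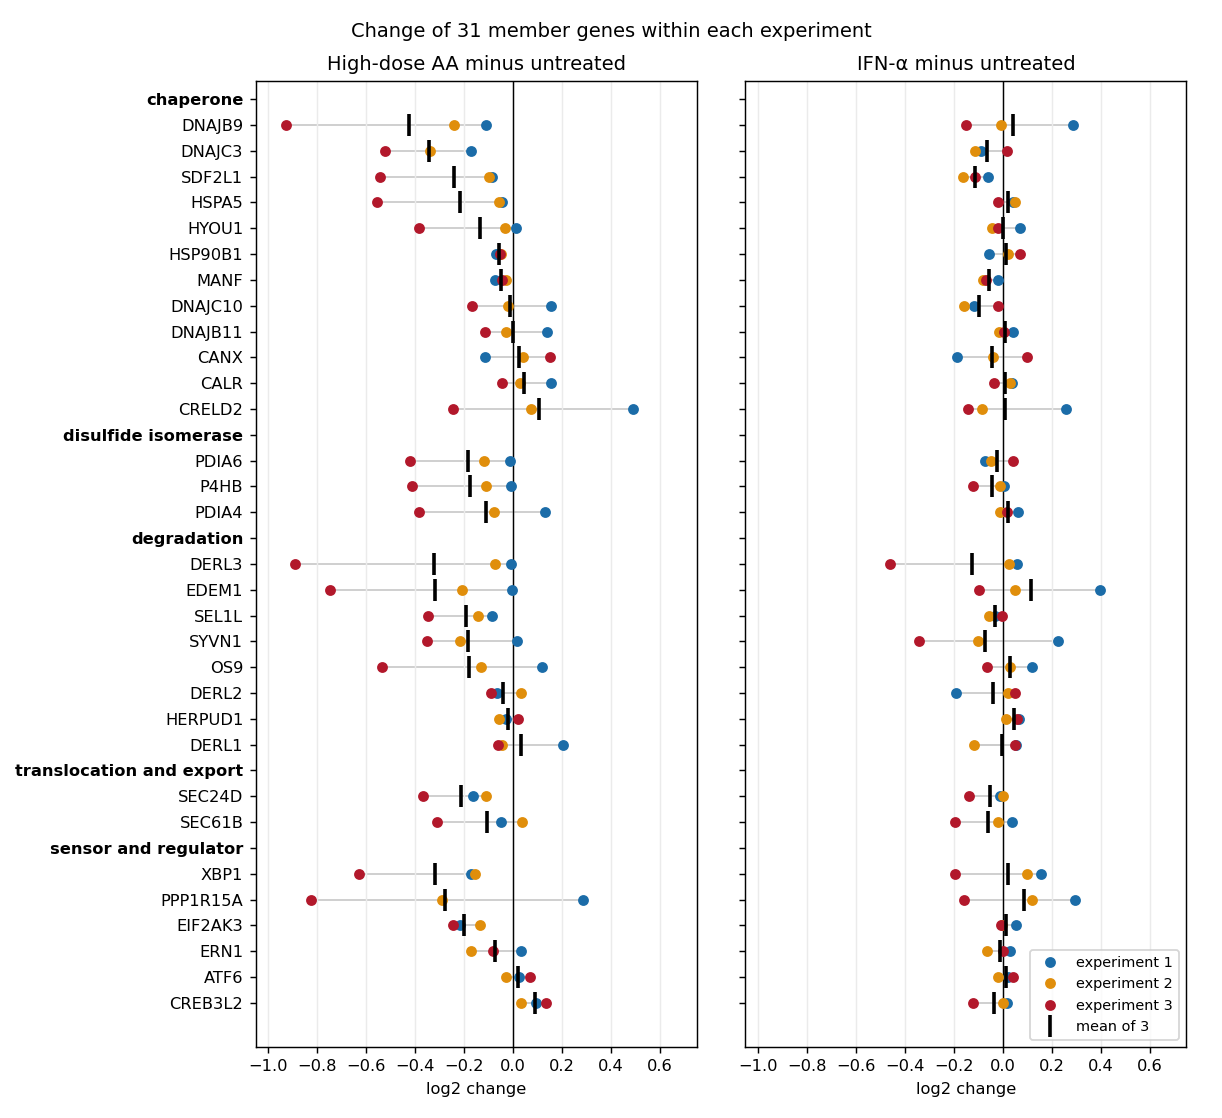
Log2 change of the 31 genes in high-dose AA (left) and IFN-α (right) relative to untreated cells of the same experiment, by role. Points are the 3 experiments and the black bar is their mean. Under high-dose AA the points of experiment 3 reach -0.93, and under IFN-α the means lie between -0.13 and 0.12.

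Among the sensors and regulators, XBP1 had the lowest change. XBP1 is the transcription factor made from the messenger RNA that IRE1 splices, and the cluster value does not separate the spliced from the unspliced form. In experiments 1, 2 and 3 its log2 values were 9.99, 10.08 and 9.68 in high-dose AA cells, against 10.16, 10.23 and 10.31 in untreated cells. The groups did not overlap, and the log2 change was -0.32 (SE 0.11, adjusted p = 0.427), with -0.17, -0.15 and -0.63 in the 3 experiments. Without the high-dose AA array of experiment 3 it was -0.20, at an unadjusted p over 0.05. At the low dose XBP1 was 10.38, 10.11 and 10.20 and at the intermediate dose 10.12, 9.92 and 10.09, so that the low-dose arrays spread around the untreated ones and the intermediate-dose arrays lay below all of them. IFN-α arrays had 10.32, 10.33 and 10.11, 2 of them above and 1 below all untreated arrays.

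EIF2AK3, the PERK kinase, was 8.85, 8.71 and 8.67 in high-dose AA cells, against 9.06, 8.85 and 8.91 in untreated cells, and the groups narrowly did not overlap. Its log2 change was -0.20 (SE 0.10, adjusted p = 0.477), at an unadjusted p under 0.05 with the experiment as a block. EIF2AK3 was 8.91, 8.69 and 8.78 at the low dose, 8.82, 8.86 and 8.62 at the intermediate dose and 9.12, 8.84 and 8.90 in IFN-α cells, and in IFN-α cells it covered the untreated range. PPP1R15A directs the phosphatase that removes the phosphate from eIF2α. It had 8.71, 8.48 and 8.07 in high-dose AA cells, against 8.42, 8.77 and 8.89 in untreated cells. The 3 experiments went in different directions, with log2 changes of 0.29, -0.29 and -0.83, and the fitted change was -0.28 (SE 0.15, adjusted p = 0.495), or -0.10 without the high-dose AA array of experiment 3. PPP1R15A was 8.66, 8.63 and 8.68 at the low dose, 8.69, 8.61 and 8.40 at the intermediate dose and 8.72, 8.89 and 8.73 in IFN-α cells, and each of these groups overlapped untreated cells.

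The other sensors stayed close to untreated cells in their fitted change. ERN1, the IRE1 kinase and nuclease, had a log2 change of -0.07 (SE 0.075, adjusted p = 0.702) in high-dose AA, ATF6 one of 0.02 (SE 0.080, adjusted p = 0.929), and CREB3L2, an ER-bound transcription factor related to ATF6 in its activation, one of 0.09 (SE 0.10, adjusted p = 0.737). Their 95% intervals were -0.23 to 0.09, -0.15 to 0.19 and -0.13 to 0.30. CREB3L2 was higher in high-dose AA in all 3 experiments (0.09, 0.03 and 0.14) and it was the only 1 of the 31 genes that was, against 15.0% of all clusters. Over the 6 sensors and regulators the median log2 change was -0.14, and -0.077 without the high-dose AA array of experiment 3.

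Among the chaperones 2 of the 4 J-domain cofactors of HSPA5, DNAJB9 and DNAJC3, had the lowest changes. DNAJB9 (ERdj4) binds HSPA5 and IRE1 and is a target of XBP1. Its log2 values were 8.18, 8.12 and 7.65 in high-dose AA cells, against 8.29, 8.36 and 8.58 in untreated cells. All high-dose AA arrays were lower, that of experiment 3 by the most, and the log2 change was -0.43 (SE 0.13, adjusted p = 0.422). Without that array it was -0.26, still at an unadjusted p under 0.05. DNAJB9 was 8.40, 8.20 and 8.27 at the low dose and 8.10, 8.12 and 8.12 at the intermediate dose, where all arrays again lay below the untreated ones (log2 change -0.30, SE 0.13, adjusted p = 0.9998). In IFN-α cells DNAJB9 was 8.58, 8.35 and 8.43, which overlapped untreated cells.

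DNAJC3, a lumenal cochaperone known as an inhibitor of PERK, had 9.30, 9.14 and 9.05 in high-dose AA cells, against 9.47, 9.47 and 9.57 in untreated cells. The groups did not overlap, the log2 change was -0.34 (SE 0.12, adjusted p = 0.422), and the experiments (-0.17, -0.34 and -0.52) differed less than for DNAJB9. At the low dose DNAJC3 was 9.16, 9.37 and 9.60, at the intermediate dose 9.03, 9.20 and 9.33 (log2 change -0.32, SE 0.12, adjusted p = 0.9998) and in IFN-α cells 9.38, 9.36 and 9.59. Intermediate-dose arrays were all below the untreated ones, and the low-dose and IFN-α arrays were not. The remaining J-domain cofactors DNAJB11 and DNAJC10 had changes of -0.0015 (adjusted p = 0.997) and -0.01 (adjusted p = 0.979).

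HSPA5 (BiP), the abundant ER chaperone of the HSP70 family that also holds the sensors inactive, was 12.58, 12.67 and 12.22 in high-dose AA cells, against 12.62, 12.72 and 12.78 in untreated cells. The arrays of experiments 1 and 3 lay below the untreated range, that of experiment 1 narrowly, the log2 change was -0.22 (SE 0.11, adjusted p = 0.482), and without the array of experiment 3 it was -0.085. HSPA5 was 12.51, 12.72 and 12.79 at the low dose, 12.50, 12.63 and 12.68 at the intermediate dose and 12.66, 12.77 and 12.76 in IFN-α cells, all overlapping untreated cells. SDF2L1, a cofactor of the HSPA5 complex, had 8.84, 9.09 and 8.50 in high-dose AA cells, against 8.93, 9.18 and 9.04 in untreated cells, with a log2 change of -0.24 (SE 0.15, adjusted p = 0.537). It was 8.84, 9.21 and 9.20 at the low dose, 8.70, 9.05 and 9.06 at the intermediate dose and 8.87, 9.02 and 8.93 in IFN-α cells, and no group separated from the untreated arrays. The SDF2L1 change was -0.086 without the high-dose AA array of experiment 3.

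The other chaperones had small changes under high-dose AA. HYOU1, a nucleotide exchange factor of HSPA5, had -0.14 (SE 0.10, adjusted p = 0.602). HSP90B1 (GRP94), the HSP90 of the ER, had -0.06 (SE 0.067, adjusted p = 0.741), with every high-dose AA array below every untreated one. Calreticulin (CALR) and calnexin (CANX), the lectin chaperones of glycoproteins, had 0.05 (95% interval -0.13 to 0.22) and 0.03 (-0.18 to 0.23). MANF had -0.05 (adjusted p = 0.803), and CRELD2, another secreted target of ER stress, had 0.11 (adjusted p = 0.758), with 0.49, 0.07 and -0.24 in the 3 experiments. Over the 12 chaperones the median was -0.053, and -0.060 without the high-dose AA array of experiment 3. In the fit over all arrays 2 were lower at an unadjusted p under 0.05, against 3.62% of all clusters and 5.34% of the brightest 25%.

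The disulfide isomerases form and rearrange disulfide bonds in the ER. P4HB, the main one of them and a subunit of prolyl hydroxylase, an enzyme that uses ascorbate, was 12.41, 12.35 and 12.13 in high-dose AA cells, against 12.42, 12.46 and 12.55 in untreated cells. The groups did not overlap and the log2 change was -0.18 (SE 0.077, adjusted p = 0.445). With the high-dose AA array of experiment 3 left out it was -0.094, at an unadjusted p over 0.05. The other P4HB cluster had a change of -0.23 (adjusted p = 0.427), with overlapping groups. P4HB was 12.46, 12.46 and 12.44 at the low dose, 12.39, 12.46 and 12.39 at the intermediate dose and 12.43, 12.46 and 12.43 in IFN-α cells, and these groups overlapped untreated cells. PDIA6, a partner of HSPA5, had 12.55, 12.51 and 12.23 in high-dose AA cells, against 12.56, 12.63 and 12.65 in untreated cells, without overlap and with a log2 change of -0.18 (SE 0.091, adjusted p = 0.474). In low-dose AA it was 12.48, 12.57 and 12.57, in intermediate-dose AA 12.46, 12.58 and 12.60 and in IFN-α cells 12.49, 12.58 and 12.69. The PDIA6 change was -0.082 when the high-dose AA array of experiment 3 was left out. For PDIA4 the change in high-dose AA was -0.11 (adjusted p = 0.707).

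Of the degradation factors, EDEM1, which trims mannose from glycoproteins marked for destruction and is a target of XBP1, had 9.93, 9.86 and 9.36 in high-dose AA cells, against 9.93, 10.07 and 10.11 in untreated cells. The highest high-dose AA array was just under the lowest untreated one, both of experiment 1, and the changes in the 3 experiments were -0.0026, -0.21 and -0.75. The fitted log2 change was -0.32 (SE 0.13, adjusted p = 0.441), and without the high-dose AA array of experiment 3 it was -0.14, at an unadjusted p over 0.05. EDEM1 was 10.05, 10.00 and 9.93 at the low dose, 9.88, 9.93 and 9.86 at the intermediate dose and 10.33, 10.12 and 10.01 in IFN-α cells. IFN-α cells of experiment 1 had the highest value of all arrays, and intermediate-dose arrays were all below the untreated ones.

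OS9, a lectin that delivers glycoproteins to the HRD1 ligase, was 10.07, 9.98 and 9.65 in high-dose AA cells, against 9.95, 10.11 and 10.19 in untreated cells, a log2 change of -0.18 (SE 0.10, adjusted p = 0.506). It was 10.04, 10.10 and 10.05 at the low dose, 10.00, 10.13 and 9.96 at the intermediate dose and 10.07, 10.14 and 10.13 in IFN-α cells. High-dose AA of experiment 3 was the lowest OS9 array, without which the change was -0.059, and the high-dose AA array of experiment 1 was above its untreated array. SYVN1, the HRD1 ubiquitin ligase itself, had -0.19 (SE 0.14, adjusted p = 0.611), and SEL1L, its membrane adaptor, had -0.19 (SE 0.10, adjusted p = 0.488) without overlap of the groups and at an unadjusted p under 0.05 with the experiment as a block. Among the derlins, thought to help proteins out of the ER membrane, DERL3 had -0.32 (SE 0.23, adjusted p = 0.579), DERL1 0.03 (adjusted p = 0.908) and DERL2 -0.04 (adjusted p = 0.869). DERL3 also differed between experiments in untreated cells (8.58, 9.21 and 9.25). Its change was -0.16 without the high-dose AA array of experiment 3, and over all arrays it was at an unadjusted p under 0.05 with the experiment as a block. HERPUD1, a membrane partner of the HRD1 complex, had -0.02 (95% interval -0.25 to 0.20). The median over the 8 degradation factors was -0.18, and -0.11 without the high-dose AA array of experiment 3.

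SEC24D is a coat protein that selects cargo for vesicles leaving the ER. Its log2 values were 9.30, 9.15 and 9.08 in high-dose AA cells, against 9.46, 9.26 and 9.45 in untreated cells, with a log2 change of -0.21 (SE 0.085, adjusted p = 0.441). It was -0.16, at an unadjusted p over 0.05, without the high-dose AA array of experiment 3. SEC24D differed from untreated cells by more at the intermediate dose, with 9.12, 9.10 and 9.07 and a log2 change of -0.29 (SE 0.085, adjusted p = 0.9998), where no array overlapped the untreated ones. At the low dose it was 9.30, 9.15 and 9.19 (-0.18, adjusted p = 0.9999) and in IFN-α cells 9.45, 9.26 and 9.31. Untreated arrays of experiments 1 and 3 were near each other and that of experiment 2 was lower, and with the experiment as a block the low dose was at an unadjusted p under 0.05 too. SEC61B, a subunit of the translocation channel, had -0.11 (SE 0.099, adjusted p = 0.673) in high-dose AA.

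**Figure D2:**
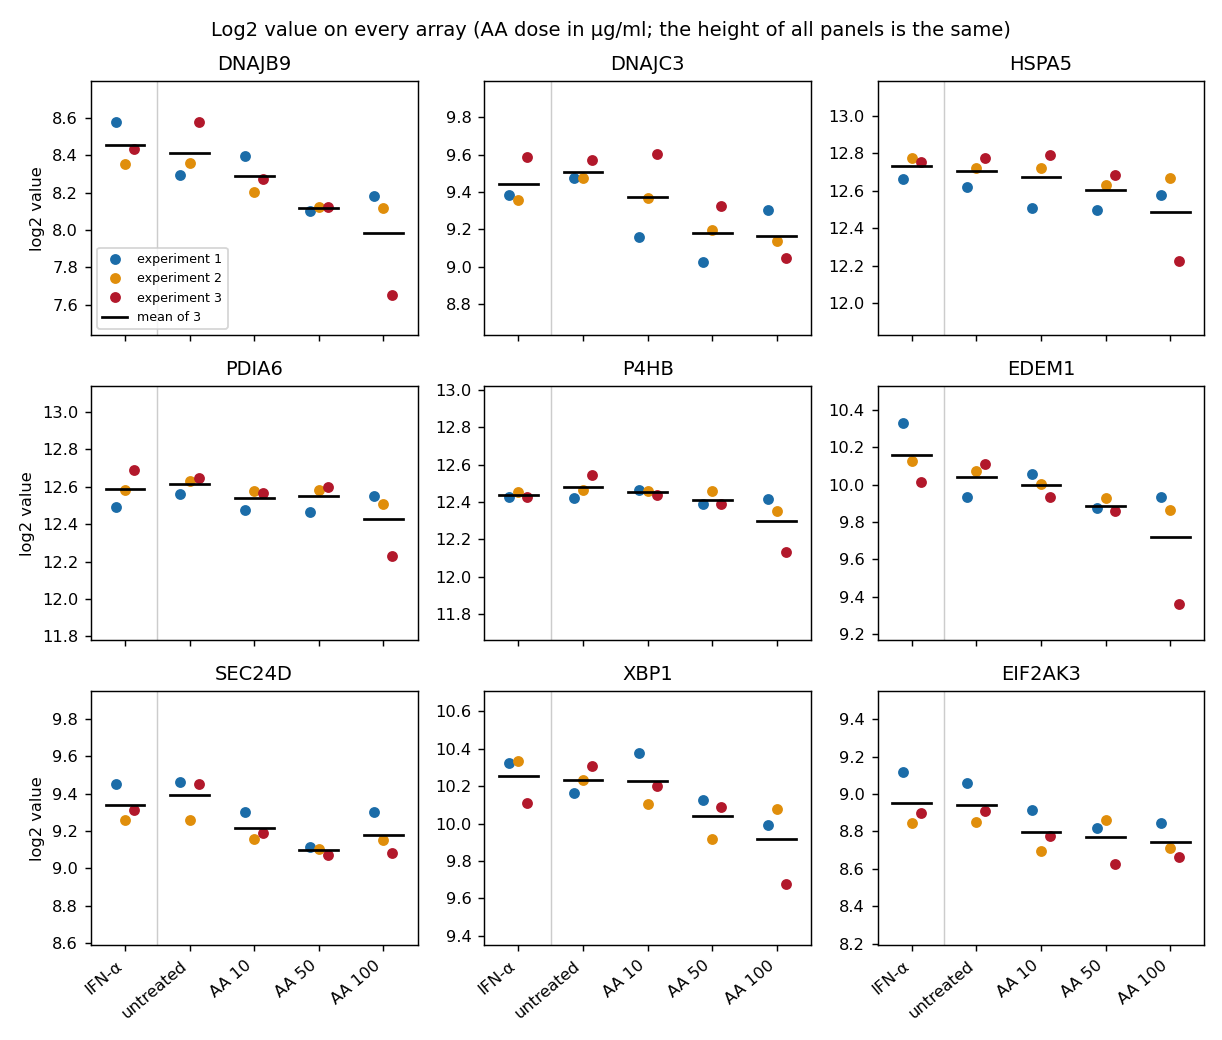
Log2 values on every array for 9 of the genes. Points are the 3 experiments and lines are means of 3. The DNAJB9 means step down with the AA dose while IFN-α arrays lie with the untreated ones, and the high-dose AA array of experiment 3 is the lowest of all 15 in 6 panels. The last DNAJB9 step rests on that array. High-dose AA values of experiments 1 and 2 (8.182 and 8.120) lay above the intermediate-dose mean of 8.116.

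Across AA doses, the question was whether the levels follow the amount of AA. Intermediate-dose AA gave a negative log2 change for 30 of 31 genes, CRELD2 being the exception, against 47.4% of all clusters and 62.8% of the brightest 25%. The median was -0.082, against 0.0063 for all clusters and -0.025 for the brightest 25%, and 16 genes were lower in all 3 experiments, against 13.3% of all clusters and 19.0% of the brightest 25%. At an unadjusted p under 0.05, 3 of 31 genes were lower (DNAJB9, DNAJC3 and SEC24D), against 1.47% of all clusters. This count was 1 without intermediate-dose AA of experiment 1, without untreated cells of experiment 3, without experiment 2 and without experiment 3, where 0.971% to 1.28% of all clusters were lower. In 6 genes (DNAJB9, DNAJC3, SEL1L, EDEM1, SEC24D and XBP1) the intermediate-dose arrays were all below the untreated ones, against 4.67% of all clusters and 6.47% of the brightest 25%. Low-dose AA gave 24 negative changes, against 47.7% of all clusters and 62.1% of the brightest 25%, with a median of -0.035, against -0.024 for the brightest 25%. None of the 31 genes reached an unadjusted p under 0.05 there, against 1.49% of all clusters lower, and SEC24D did so with the experiment as a block.

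The means of untreated, low-, intermediate- and high-dose cells stepped down at each dose for 14 of 31 genes, and for none did they step up, against 11.0% of all clusters and 5.84% of the brightest 25%. The 14 genes were HSPA5, HYOU1, DNAJB9, DNAJC3, P4HB, SEL1L, SYVN1, EDEM1, DERL3, OS9, XBP1, ERN1, EIF2AK3 and PPP1R15A. Such an order was found for 8.11% of all clusters and 14.6% of the brightest 25%. Without the high-dose AA array of experiment 3 the last step was lost for HSPA5, HYOU1, DNAJB9, DNAJC3, SEL1L, EDEM1, EIF2AK3 and PPP1R15A. P4HB, SYVN1, DERL3, OS9, XBP1 and ERN1 kept the order. The share of all clusters that kept it was not determined. The median over the 31 genes under high-dose AA was then -0.062, against -0.082 at the intermediate dose. In the slope over the 12 arrays without IFN-α, given as the log2 change per 100 µg/ml, 6 of 31 genes had a negative slope at an unadjusted p under 0.05 (HSPA5, DNAJB9, DNAJC3, P4HB, EDEM1 and XBP1), against 3.38% of all clusters and 4.49% of the brightest 25%. DNAJB9 had a slope of -0.40 (SE 0.11, adjusted p = 0.412) and XBP1 one of -0.34 (SE 0.095, adjusted p = 0.412). Without experiment 3, 1 of the 31 genes (DNAJB9) had a slope at an unadjusted p under 0.05, against 1.89% of all clusters. There were 13 such genes without experiment 1, where 6.97% of all clusters and 12.8% of the brightest 25% had lower slopes. There were 11 without the high-dose AA array of experiment 1 (9.16% and 17.1%), without that of experiment 2 (6.20% and 8.41%) and without the untreated array of experiment 1 (3.22% and 4.84%).

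**Figure D3:**
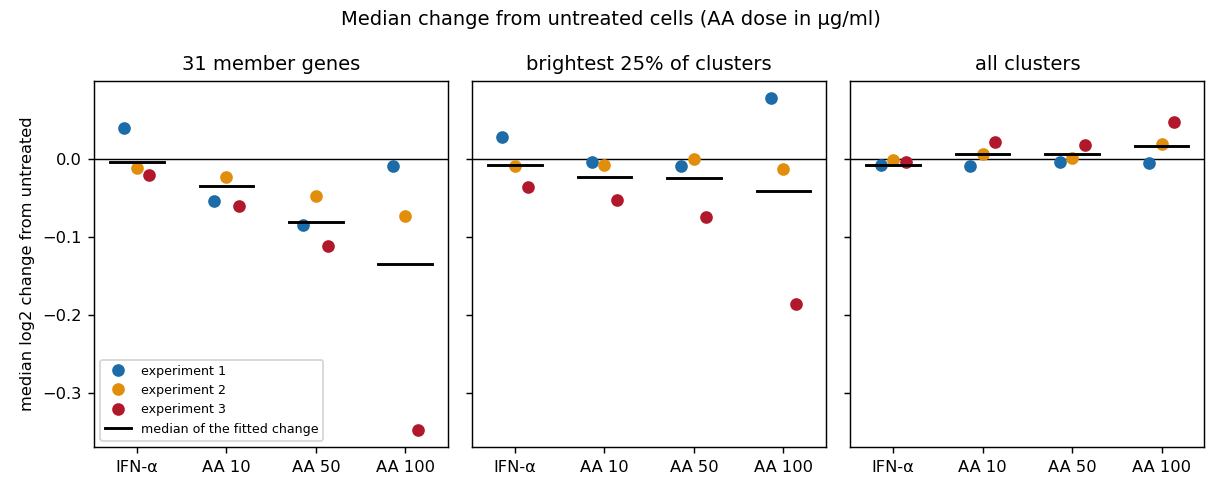
Median log2 change from untreated cells for the 31 genes (left), the brightest 25% of clusters (middle) and all clusters (right), by treatment. Points are the 3 experiments and lines the median of the fitted changes. The line of the 31 genes lies at -0.035, -0.082 and -0.14 over the AA doses and at -0.0040 in IFN-α. Without the high-dose AA array of experiment 3 the high-dose median was -0.062, closer to untreated cells than the intermediate-dose median.

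In IFN-α cells no gene of the 31 separated from the untreated arrays, against 2.93% of all clusters with every IFN-α array below every untreated one. Log2 changes lay between -0.13 (DERL3) and 0.12 (EDEM1), with 16 negative (54.3% of all clusters) and 15 positive and a median of -0.0040. None reached an unadjusted p under 0.05, against 1.39% of all clusters, and none passed an adjusted p under 0.05, which 64 clusters did. For 30 of 31 genes the 95% interval of the change lay within 0.5 on the log2 scale in both directions, and for DERL3 it was -0.61 to 0.36. The experiments were not alike: 21 genes were higher in IFN-α cells in experiment 1, 11 in experiment 2 and 11 in experiment 3. Shares of all clusters within single experiments were not determined here either. In experiment 1 EDEM1 had a log2 change of 0.40, PPP1R15A 0.29, DNAJB9 0.29 and CRELD2 0.26, and in experiment 3 all 4 were lower (-0.10, -0.16, -0.15 and -0.14). Without experiment 3, EDEM1 was higher at an unadjusted p under 0.05.

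The direct comparison asked whether high-dose AA and IFN-α differ in these genes. Of the 31 genes, 23 were lower in high-dose AA, against 43.2% of all clusters and 59.0% of the brightest 25%, with a median log2 change of -0.13. At an unadjusted p under 0.05, 6 genes were lower, against 4.15% of all clusters and 7.44% of the brightest 25%. DNAJB9 had -0.47 (SE 0.13, adjusted p = 0.215), EDEM1 -0.44 (SE 0.13, adjusted p = 0.276) and XBP1 -0.34 (SE 0.11, adjusted p = 0.323), followed by PPP1R15A -0.36 (SE 0.15, adjusted p = 0.374), DNAJC3 -0.28 (SE 0.12, adjusted p = 0.378) and HSPA5 -0.24 (SE 0.11, adjusted p = 0.41). The smallest adjusted p was 0.215. Without the high-dose AA array of experiment 3 the count was 3 (DNAJB9, EDEM1 and XBP1), against 2.32% of all clusters, as it was without experiment 2 (2.80%) or without experiment 3 (1.97%). It was 11 without the high-dose AA array of experiment 1, where 10.6% of all clusters and 20.3% of the brightest 25% were lower. This comparison and that with untreated cells share the high-dose AA arrays.

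The 10 genes with an ER stress response element of either form had a median log2 change of -0.097 under high-dose AA, and the 18 genes with a promoter and neither form -0.14. Of the genes shown above, HSPA5 and XBP1 carry the first form and had -0.22 and -0.32, HERPUD1 and HYOU1 carry the second and had -0.02 and -0.14, and DNAJB9 had -0.43 without a match.

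Other genes of the pathway were taken from lists of 108 genes, of which 100 were measured. Genes downstream of PERK and ATF4, the branch that answers amino acid shortage as well as ER stress, are listed first. Under high-dose AA 14 of 15 were negative, against 45.6% of all clusters and 61.6% of the brightest 25%, with a median log2 change of -0.36. At an unadjusted p under 0.05, 7 were lower, against 3.62% and 5.34%, and none passed an unadjusted p under 0.001. The paper, in its own limma fit, lists CHAC1 among the genes lowered by high-dose AA at that threshold. Whether its fit used a block is not stated. With the experiment as a block CHAC1, ASNS and STC2 passed it, against 0.667% of all clusters, with adjusted p of 0.107 to 0.134. CHAC1, which degrades glutathione, was 8.15, 8.59 and 7.98 in high-dose AA cells, against 8.63, 8.99 and 8.94 in untreated cells, a log2 change of -0.61 (SE 0.15, adjusted p = 0.385). The groups did not overlap.

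ASNS, asparagine synthetase, was 9.21, 9.04 and 8.95 in high-dose AA cells, against 9.52, 9.29 and 9.46 in untreated cells, with a log2 change of -0.36 (SE 0.097, adjusted p = 0.422). STC2, a secreted glycoprotein of the ATF4 response, was 8.78, 8.70 and 7.49 in high-dose AA cells, against 9.30, 9.25 and 9.35 in untreated cells, with -0.98 (SE 0.29, adjusted p = 0.422). Neither gene overlapped between these groups, and the STC2 array of experiment 3 was far below the others, without which the STC2 change was -0.56. The slope of CHAC1 on the AA dose passed an unadjusted p under 0.001 (-0.60, SE 0.13, adjusted p = 0.356), against 0.245% of all clusters. It was not passed without the high-dose AA array of experiment 3, and the unadjusted limma p without 1 array or 1 experiment ranged from 2.89e-05 to 0.0123.

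ATF3, a stress-induced transcription factor, was lower in high-dose AA than in IFN-α cells in all 3 experiments (7.35, 7.24 and 7.14, against 7.87, 7.67 and 7.58 in IFN-α cells). It was the 1 gene of the 100 in these lists past an unadjusted p under 0.001 in that comparison, against 0.650% of all clusters. The ATF3 log2 change was -0.46 (SE 0.092, adjusted p = 0.0559), and it also passed with the block. It did not pass without the IFN-α array of experiment 1, with an unadjusted limma p of 0.00134. Untreated cells lay between, with 7.41, 7.65 and 7.55, where ATF3 in high-dose AA had -0.29 (SE 0.092, adjusted p = 0.422) relative to them. In IFN-α none of the 15 genes reached an unadjusted p under 0.05, and their median was 0.018. Without the high-dose AA array of experiment 3 the median of the 15 genes under high-dose AA was -0.28, against 0.011 for all clusters. At an unadjusted p under 0.05, 5 were then lower, against 1.71% of all clusters.

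**Figure D4:**
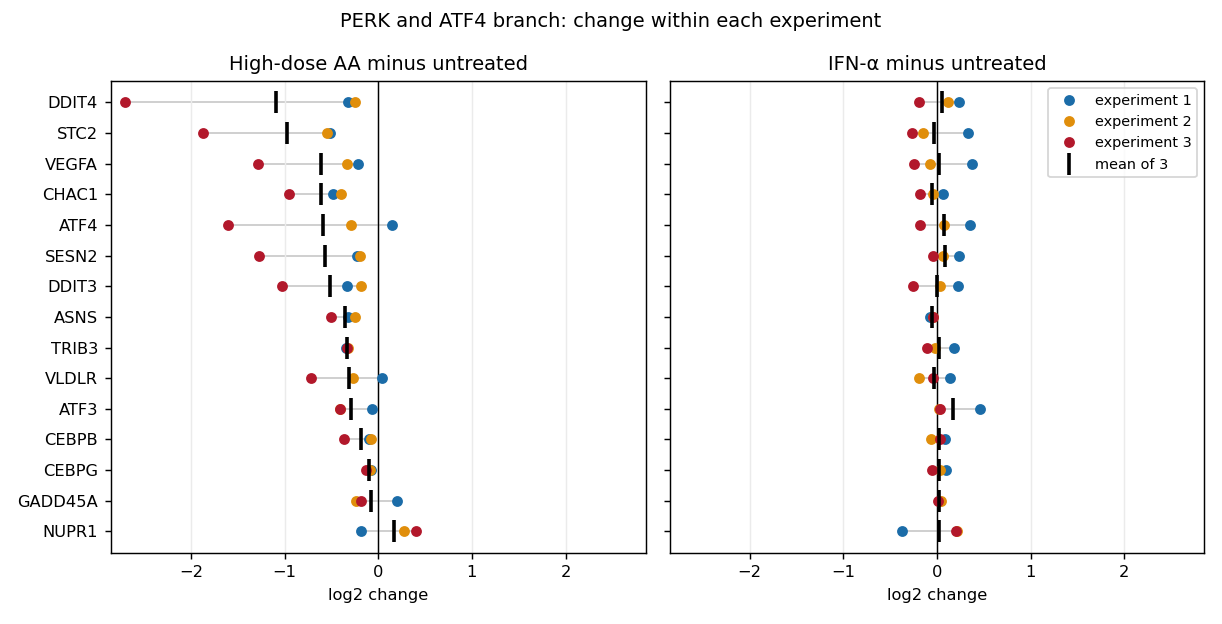
Log2 change of 15 genes downstream of PERK and ATF4 in high-dose AA (left) and IFN-α (right) relative to untreated cells of the same experiment. Points are the 3 experiments and black bars their means. Under high-dose AA the means of 14 genes are negative, and the points of experiment 3 lie farthest left for most of them.

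In the other 4 lists no gene passed an unadjusted p under 0.001 in any comparison. Of 22 further folding and redox genes, 3 were lower and 1 higher under high-dose AA at an unadjusted p under 0.05, with a median of -0.067. All clusters had 3.62% lower and 7.34% higher, and the brightest 25% had 5.34% and 2.89% and a median of -0.041. ERO1B, an oxidase that recharges the disulfide isomerases, was the first of them, with 11.01, 10.95 and 10.79 in high-dose AA cells, against 11.15, 11.12 and 11.16 in untreated cells, and a log2 change of -0.22 (SE 0.069, adjusted p = 0.422). HSPA13, a microsomal relative of HSPA5, had -0.34 (SE 0.14, adjusted p = 0.444) and QSOX1, a sulfhydryl oxidase, -0.31 (SE 0.14, adjusted p = 0.445). The 1 higher gene was CLGN, a relative of calnexin, with 0.18 (SE 0.083, adjusted p = 0.451). Of 23 further degradation genes 2 were lower, with a median of -0.082. They were ERLEC1, a lectin, with -0.19 (SE 0.077, adjusted p = 0.441), and SELENOK, a selenoprotein of the ER membrane, with -0.20 (SE 0.085, adjusted p = 0.444).

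Of 27 further genes of translocation and export 2 were lower, against 3.62% of all clusters and 5.34% of the brightest 25%. The median of the 27 genes was -0.029, which is no lower than that of the brightest 25%. SSR4, a subunit of the translocon-associated protein complex, had 8.86, 9.13 and 8.71 in high-dose AA cells, against 9.19, 9.28 and 9.18 in untreated cells, without overlap and with a log2 change of -0.32 (SE 0.093, adjusted p = 0.422), and SEC62 had -0.28 (SE 0.13, adjusted p = 0.453). Of 13 further sensors and regulators none reached an unadjusted p under 0.05, with a median of -0.091. CREB3, a relative of CREB3L2, had -0.37 (SE 0.19, adjusted p = 0.479), NFYC, a subunit of the factor that binds CCAAT, 0.15 (SE 0.078, adjusted p = 0.482), and NFYA, another subunit, -0.21 (SE 0.11, adjusted p = 0.493). Without the high-dose AA array of experiment 3, CREB3 was -0.076, SEC62 -0.097, HSPA13 -0.19, QSOX1 -0.14, SELENOK -0.12 and NFYA -0.12. Of the genes named from these lists, ERO1B, SSR4 and NFYC (0.18) were then at an unadjusted p under 0.05. Of all clusters 1.71% were then lower at that threshold, and the share that was higher was not determined. The medians of these 4 lists were then -0.039 for folding and redox, 0.016 for degradation, -0.016 for translocation and export and -0.029 for sensors and regulators. All clusters then had a median of 0.011 and the brightest 25% one of 0.019.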

How the data were processed

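RNA of MT-2 cells from 5 conditions and 3 experiments was measured on 15 arrays. The deposited values are log2 values per transcript cluster, which the authors computed in xps with RMA, a method that subtracts background, gives all arrays the same distribution and summarizes probes. No further normalization was applied. Of 28926 clusters, 19310 carry 1 gene symbol in the probe annotation, and a gene was represented by its brightest such cluster. Treatments were compared in 1 limma model over 15 arrays (limma 3.58.1 in R 4.3.3, default empirical Bayes, residual degrees of freedom 10 and prior 3.91). The slope on the AA dose used 12 arrays. All p values are two-sided and come from limma, and adjusted p are Benjamini-Hochberg values over all clusters. The study's threshold is an unadjusted p under 0.001. No source used here says that arrays of a condition came from separate cultures, so p values measure the spread between arrays, which may be technical, and 3 arrays per condition limit the precision.

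The members and lists were chosen with earlier results of these data known. Values in every array are given for the 12 members with the smallest p in the high-dose AA, IFN-α or slope fit. Of the other lists, every gene past an unadjusted p under 0.001 and up to 3 per list and comparison with the smallest p were eligible to be named. Alternatives were the block, array weights, cyclic loess, median centring, a trended and robust variance, other sets of clusters, dose ranks, a model of the compared groups alone, other thresholds and leaving out each array or experiment. The experiment is the tag shared in the sample titles. After subtraction of condition means, 2 arrays of the same experiment correlated with a median of 0.281 (30 pairs, -0.194 to 0.536, 25 of them over 0.1). For 2 arrays of different experiments the median was -0.172 (60 pairs). The subtraction itself tends to make this value negative where the first is positive, so it is not separate evidence for the tag. The untreated array of experiment 3 had -0.057 with IFN-α, -0.19 with high-dose, 0.020 with intermediate-dose and -0.030 with low-dose AA of its experiment. Changes within experiment 3 are taken from that array, which these values do not tie to its tag. The experiment as a block was an alternative, with statmod 1.5.0 for the random effect. Promoters were searched as letters only. The procedure was tested on simulated data. Plots used matplotlib 3.10.9 and Python 3.11.15.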

Additional observations from a re-analysis of the deposited data

How the results depend on the processing

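Each alternative was run for the counts and medians and for the 12 genes with values in every array, and no called difference among them changed sign. With array weights, for which the estimation stopped before its tolerance was reached, 12 genes were at an unadjusted p under 0.05 for high-dose AA against untreated cells, all lower, against 12.7% of all clusters lower. The count was 6 for intermediate-dose AA (3.42%), 2 for low-dose AA (4.38%) and 10 for high-dose AA against IFN-α (9 lower and CRELD2 higher, against 12.9% lower). DNAJB9 and DNAJC3 then passed an unadjusted p under 0.001 against untreated cells and against IFN-α, and DNAJB9 passed it against IFN-α under cyclic loess normalization. Without the high-dose AA array of experiment 1 DNAJB9 passed it against IFN-α and in the slope, and without experiment 1 DNAJC3 passed it in the slope. In the model of the compared groups alone the high-dose AA count was 3, against 1.44% of all clusters lower (3.62% in the fit as reported). With the replicate block the count was 9 for high-dose AA (6.50% of all clusters and 10.9% of the brightest 25% lower), 4 for intermediate-dose AA (2.65% and 3.36%), 1 for low-dose AA (2.87% and 3.36%), 0 for IFN-α (0.868% and 0.539%), 8 for high-dose AA against IFN-α (7.08% and 12.8%) and 9 for the slope (5.64% and 8.81%), and 1 for low-dose AA with the block as a random effect (consensus correlation 0.157). No call at an unadjusted p under 0.001 among the 31 genes changed with the block. At a threshold of an unadjusted p under 0.001 or an adjusted p under 0.05, all counts in the fit as reported were 0. The low-dose AA median was -0.013 under cyclic loess normalization and -0.059 after median centring. For high-dose AA the median under cyclic loess normalization was -0.10, where the brightest 25% of clusters had 0.0013. Without 1 array or 1 experiment, counts ranged from 1 to 11 for high-dose AA, 1 to 4 for intermediate-dose AA, 0 to 1 for low-dose AA, 0 to 1 for IFN-α, 3 to 11 for high-dose AA against IFN-α and 1 to 13 for the slope. Medians ranged from -0.21 to -0.043 for high-dose AA, -0.12 to -0.038 for intermediate-dose AA, -0.082 to 0.013 for low-dose AA, -0.050 to 0.010 for IFN-α, -0.17 to -0.044 for high-dose AA against IFN-α and -0.19 to -0.039 for the slope. The cause of these differences was not tested. Of the other genes of the pathway, whose alternatives were added after the data were seen, ASNS, STC2, ATF3 and ERO1B passed an unadjusted p under 0.001 against untreated cells with array weights, CHAC1 then did not pass it in the slope, SSR4 passed an unadjusted p under 0.001 against untreated cells, against IFN-α and in the slope without the high-dose AA array of experiment 2, and ATF3 no longer passed it against IFN-α without any 1 of the 3 experiments.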

Other observations

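Independently of treatment, some of the genes differed between the experiments. DERL3, DNAJB11, HERPUD1, SYVN1, CREB3L2, SEC61B and ATF6 were lower in experiment 1 than in the mean of experiments 2 and 3 in all 5 conditions, and SEC24D and EIF2AK3 were higher in all 5. Among these 7 lower genes DERL3 differed most, with a mean log2 difference of -0.37 over the conditions, followed by DNAJB11 with -0.29, HERPUD1 with -0.21 and SYVN1 with -0.19. For EIF2AK3 it was 0.17 and for SEC24D 0.12. The median over the 31 genes was -0.075, against -0.0079 over all clusters. In untreated cells SYVN1 was 9.54 in experiment 1 and 10.05 and 9.96 in experiments 2 and 3, a gap larger than its log2 change under any treatment. These are values of single arrays without a test. The share of all clusters with the same direction in all 5 conditions was not determined, so the counts cannot be read as a trait of these genes.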
